A study of Mus musculus with 4 samples.

Results

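The 10 genes described here mark the type 1 helper programme of CD4+ T cells: Ifng, Tbx21, Cxcr3, Il12rb2, Il18r1, Il18rap, Stat4, Hopx, Runx3 and Gzmb. They were chosen by name, out of 55335 genes in the deposited tables, and all 10 were found there. RNA was sequenced from skin cells labelled as CD4+ T cells, with 2 libraries for each of 2 mouse genotypes, named C1 and C2 for the controls and K1 and K2 for the knockouts. All mice, controls included, carried floxed Mettl3 alleles (Mettl3fl/fl) and had 5% imiquimod cream on the back for 5 days at an age of 8 to 12 weeks. The daily amount of cream was 15 or 62.5 mg, and the sources used here do not tie an amount to each mouse. The knockout genotype (Mettl3fl/fl;Cd4-Cre) also carried Cre recombinase under control of Cd4 promoter sequences, which switch on while T cells mature in the thymus, before the CD4 and CD8 lineages part. Nor do they name the strain, how many mice went into a library or the sorting gate. The question of the comparison is what differs in these cells when Mettl3, the catalytic subunit of the m6A RNA methyltransferase, is deleted in T cells.

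Type 1 helper cells arise when interleukin-12 acts through its receptor and the transcription factor STAT4 on activated CD4+ T cells. T-bet, the product of Tbx21, then works with Runx3 to open and activate Ifng, and interleukin-18 acting on the same cells raises interferon gamma output further. The cells enter inflamed tissue through CXCR3, the receptor for chemokines that interferon gamma induces. In psoriasis-like skin inflammation, type 1 cells stand beside interleukin-17-producing cells. Several of these genes are not limited to T cells, since Gzmb is also used by natural killer cells and mast cells, Runx3 by Langerhans and other dendritic cells, and Hopx by keratinocytes.

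The libraries held 3614418 to 4537006 counted fragments. These fell in 19378 genes in C1, 11424 in C2, 20100 in K1 and 16273 in K2. A list of 14 T cell markers checked the label. It summed to 1113 CPM in C1, 319 in C2, 352 in K1 and 152 in K2, where CPM is counts scaled to a common library size after TMM scaling (a normalisation for library composition). Macrophage and monocyte markers summed to between 6703 and 24880 CPM in the same libraries. Genes differ in how much of their sequence could be counted, so sums of different lists do not measure one cell type against another. The defining gene Cd4 had 777 fragments in C1, 0 in C2, 420 in K1 and 9 in K2. C2 thus had no fragment of its labelled marker. It had the highest sum of keratinocyte markers (20830 CPM, against 845 to 1944 in the other libraries). C2 also had fragments in the fewest genes. A 0 there therefore does not show by itself that a cell type was absent. Mettl3 had 195, 49, 121 and 158 fragments in C1, C2, K1 and K2, with 0 of them in exons of protein-coding transcripts, so its counts check nothing about the deletion. Y-linked transcripts were present in C1 and K2. No library was a copy of another, since every pair differed by more than counting noise (the chi-square divided by its degrees of freedom was 40.1 at the least). This does not show that the libraries came from separate animals. The numbers in C1 to K2 follow the order of listing and only name the libraries, so a p-value here reflects the spread among these libraries, which may be technical.

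What could be counted differs greatly among the 10 genes. The submitters counted each fragment for an exon entry of a transcript, and left out those that overlapped more than 1 entry. Exons shared by several transcripts of a gene therefore hold no fragments. Tbx21, Cxcr3 and Gzmb have 1 annotated transcript each, and all of their 6, 2 and 5 exons could be counted. Runx3, Il18rap, Ifng and Il18r1 were read almost wholly through the last exon. That exon held 4537 of 4568 fragments of Runx3 (99.3%), 1140 of 1148 of Il18rap (99.3%), and all 317 of Ifng and all 55 of Il18r1. Stat4 had 7 fragments in 56 exon entries over the 4 libraries, of which 4 lay in an exon of a retained-intron transcript. Hopx had 0 fragments in 8 entries, of which 1, of 275 bases, is not overlapped by another. For Stat4 and Hopx the counts say little about the level of the gene. These 2 genes and Il12rb2 did not pass the filter on low counts, which leaves 7 tested members.

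Promoter stretches are shown for Ifng, Runx3 and Gzmb, the effector genes and the factor to which the results below return. Each is 250 bases that end just before the RefSeq start (GRCm38.p6), written 5′ to 3′ on the gene's strand. The Ifng stretch is chr10:118440796-118441045 on the plus strand, the Runx3 stretch is chr4:135120395-135120644 on the plus strand at the distal of its promoters, and the Gzmb stretch is chr14:56262335-56262584 on the minus strand. Capitals mark matches, on either strand, to the cores of motifs that the members' own factors bind: TGTGGT (reverse complement ACCACA) for RUNX factors and TTCNNNGAA for STAT factors.
Ifng: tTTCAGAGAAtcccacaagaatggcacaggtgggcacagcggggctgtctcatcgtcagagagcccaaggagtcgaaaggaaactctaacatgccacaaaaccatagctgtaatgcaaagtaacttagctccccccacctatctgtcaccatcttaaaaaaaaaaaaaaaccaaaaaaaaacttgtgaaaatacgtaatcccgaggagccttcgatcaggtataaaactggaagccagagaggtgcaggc
Runx3: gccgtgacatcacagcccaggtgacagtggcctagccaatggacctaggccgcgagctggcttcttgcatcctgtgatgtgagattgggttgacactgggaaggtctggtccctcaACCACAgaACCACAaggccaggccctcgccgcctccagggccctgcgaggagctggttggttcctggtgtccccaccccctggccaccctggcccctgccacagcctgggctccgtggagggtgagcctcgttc
Gzmb: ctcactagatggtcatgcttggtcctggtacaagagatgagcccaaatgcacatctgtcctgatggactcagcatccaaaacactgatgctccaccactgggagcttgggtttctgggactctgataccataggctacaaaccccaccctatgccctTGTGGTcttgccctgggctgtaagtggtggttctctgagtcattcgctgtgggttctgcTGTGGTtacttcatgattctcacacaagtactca
The RUNX core occurs at 2 places in the Runx3 stretch and at 2 in the Gzmb stretch, and the STAT core at 1 place in the Ifng stretch. All 10 members had such stretches in the RefSeq table, 15 in all. The RUNX core was found in 3 of these 15, and in 14.0% of 32851 stretches of the same length over all genes. The STAT core was found in 3 of 15, against 7.0% of all. A T-box core (GGTGTGA or its reverse complement TCACACC), of the family of T-bet, was found in 0 of 15 and in 3.3% of all. A match describes letters only, and shows no binding.

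Between the genotypes, 0 of the 7 tested members passed the threshold (edgeR quasi-likelihood test with Benjamini-Hochberg adjustment over 12434 genes, threshold 0.05). The adjusted p was 0.9997 for each of the 7. Over all genes 0.0% were called, and 1.5% had an unadjusted p under 0.05, as did 0 of the 7 members. DESeq2 called 0.198% of the genes to which it gave an adjusted p, edgeR without a filter on low counts 0.11%, and limma-voom 0, again with no member among them. The members' median log2 fold change, knockout minus control, was -0.70, with 2 positive and 5 negative. Over all genes tested the median was 0.20, with 56.9% positive. Without C1 the members' median was 3.05, or 1.07 with Il18r1, at 0 fragments in C2, set to the bound that 3 fragments allow. In that setting 35.5% of all genes had an unadjusted p under 0.05. Both knockouts lay above both controls for Tbx21 alone among the 7, against 19.5% of all genes tested, and below both controls for Gzmb and Il18rap, against 11.2%.

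**Figure D1:**
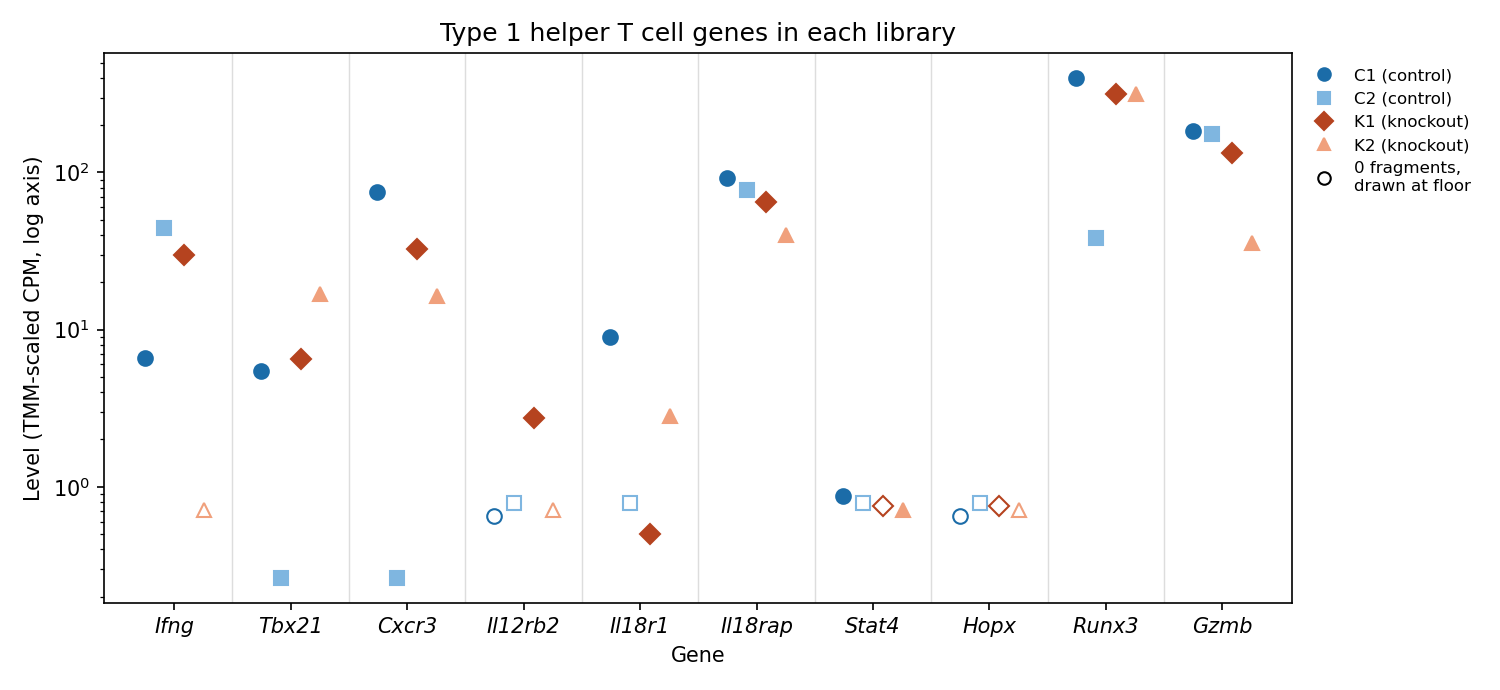
Level of each of the 10 genes (TMM-scaled CPM on a log axis) in the 2 control and 2 knockout libraries. Filled symbols are measured levels and open symbols are libraries with 0 fragments, drawn at the level of 3 fragments. The controls lie close together for Gzmb and Il18rap and far apart for Ifng, Cxcr3 and Runx3.

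Of the transcription factors, Tbx21 (ENSMUSG00000001444, GRCm38 chromosome 11, 97098071 to 97115331, minus strand), which encodes T-bet, the master regulator of the programme, had few fragments everywhere. It had 25 in C1, 1 in C2, 26 in K1 and 71 in K2, or 5.46, 0.264, 6.49 and 16.8 CPM. K2 was highest, and K1 and C1 nearly coincided. The groups did not overlap, though K1 was above C1 by only 1 fragment. The control mean was 2.86 ± 3.67 CPM and the knockout mean 11.6 ± 7.28 CPM (SD, n = 2 each), a log2 difference of 2.01 ± 2.04 (standard error). It was 1.09 without C2, 1.18 without K2 and 5.31 without C1, where the control library left has 1 fragment.

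The 71 Tbx21 fragments of K2 lay in the first exon more often than those of C1 or K1. That exon (97114650 to 97115331) held 35 of them, or 49.3% (exact 95% binomial interval 37.2 to 61.4). In C1 the first exon held 6 of 25 (24.0%, 9.4 to 45.1), and in K1 it held 7 of 26 (26.9%, 11.6 to 47.8). The last exon (97098071 to 97099378), which holds the end of the coding sequence and the 3′ UTR, had 36.6% in K2 (25.5 to 48.9), 52.0% in C1 (31.3 to 72.2) and 61.5% in K1 (40.6 to 79.8). The intervals overlap at both exons, which does not decide whether the shares differ, and the difference was not tested. Intervals cover counting error only, since no molecular identifiers are described.

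Runx3 (ENSMUSG00000070691, chromosome 4, 135120652 to 135177990, plus strand), a RUNX-family factor that partners T-bet and also shapes cytotoxic and resident lymphocytes, had the most fragments of the 10 genes. There were 1830 in C1, 144 in C2, 1264 in K1 and 1330 in K2, or 399, 38.0, 315 and 314 CPM. The knockouts agreed within 1.003-fold, whereas C1 was 10.5-fold above C2, so the groups overlapped. The log2 fold change was 0.53 ± 1.09 (standard error), and -0.34 without C2. It was 3.05 without C1. Runx3 has a distal and a proximal promoter, and the first exon of the distal transcript (135120652 to 135121163), just downstream of the stretch with 2 RUNX cores, held 3 fragments in C1 and 3 in K1 and 0 in the others. The proximal first exon held 0 in all 4, with 292 of its 561 bases free of other entries, so the counts do not separate the promoters. K1 alone had more than 1 fragment in exons of noncoding processed transcripts near the proximal promoter, 7 and 16 in the pair of exons at 135153160 to 135153296 and 135153505 to 135153731.

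Stat4 (ENSMUSG00000062939, chromosome 1, 51987148 to 52107189), which carries the interleukin-12 signal to the nucleus, had 4 fragments in C1, 0 in C2, 0 in K1 and 3 in K2. The 4 of C1 all lay in a retained-intron exon and the 3 of K2 in a first exon of a protein-coding transcript. The fragments of these libraries thus came from different stretches of the gene. Hopx (ENSMUSG00000059325, chromosome 5, 77086988 to 77115121), a small homeodomain protein that favours survival of effector type 1 cells, had 0 in every library. With 0 counted, levels of up to 0.655 CPM (C1), 0.792 (C2), 0.749 (K1) and 0.709 (K2) remain possible over the exon that could be counted, set by 3 fragments in each library. No fold is given for either gene.

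Of the secreted effectors, Ifng (ENSMUSG00000055170, chromosome 10, 118441046 to 118445892, plus strand), which encodes interferon gamma, varied widely within the genotypes. Its last exon (118445154 to 118445892) had 30 fragments in C1, 168 in C2, 119 in K1 and 0 in K2, or 6.55, 44.3, 29.7 and 0 CPM. The highest and lowest libraries were thus of different genotypes, and K1 lay above C1 between them. Controls differed 6.77-fold between themselves. The control mean was 25.4 ± 26.7 CPM and the knockout mean 14.9 ± 21 CPM (SD, n = 2 each), a log2 difference of -0.78 ± 2.44 (standard error). The direction turned without C2 (1.18) and without K2 (0.25). Without K1, only the library at 0 is left, at least 35.9-fold below the mean of the controls against a floor of 3 fragments. The library with most Ifng, C2, had 0 fragments of Cd4 and 1 of Tbx21. Which cells supplied Ifng there was not tested.

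Gzmb (ENSMUSG00000015437, chromosome 14, 56258838 to 56262260, minus strand), the granule protease granzyme B, had replicates in close accord in the controls. It had 838 fragments in C1, 661 in C2, 537 in K1 and 150 in K2, or 183, 174, 134 and 35.5 CPM. The controls differed 1.05-fold and the knockouts 3.78-fold, so the spread lay in the knockouts. Both knockouts were below both controls, at 84.7 ± 69.7 against 179 ± 5.97 CPM (SD, n = 2 each). Their log2 difference was -1.08 ± 0.85 (standard error), and it was negative under each of the 12 alternatives, from -2.32 without K1 to -0.40 without K2. Prf1, the pore-forming perforin, had 9, 0, 15 and 1 fragments in C1, C2, K1 and K2, with 726 bases free of other entries. Gzma had 0 in all 4, but only 138 of its bases are free of other entries, so this says little about its level.

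The fragments of Gzmb lay on all 5 of its exons in every library, with most on the last. The last exon (56258838 to 56259562) held 66.1% of them in C1 (exact 95% interval 62.8 to 69.3), 62.2% in C2 (58.4 to 65.9), 58.5% in K1 (54.2 to 62.7) and 62.7% in K2 (54.4 to 70.4). The fourth exon held 18.4% in C1 and 22.5%, 20.9% and 22.0% in C2, K1 and K2. The first exon held 2.3%, 1.1%, 3.7% and 3.3% in the same order. K2 had fewer fragments than any other library at each of the 5 exons, and its intervals hold the shares of C1 at all 5. The intervals of C1 and K1 do not overlap at the last exon.

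**Figure D2:**
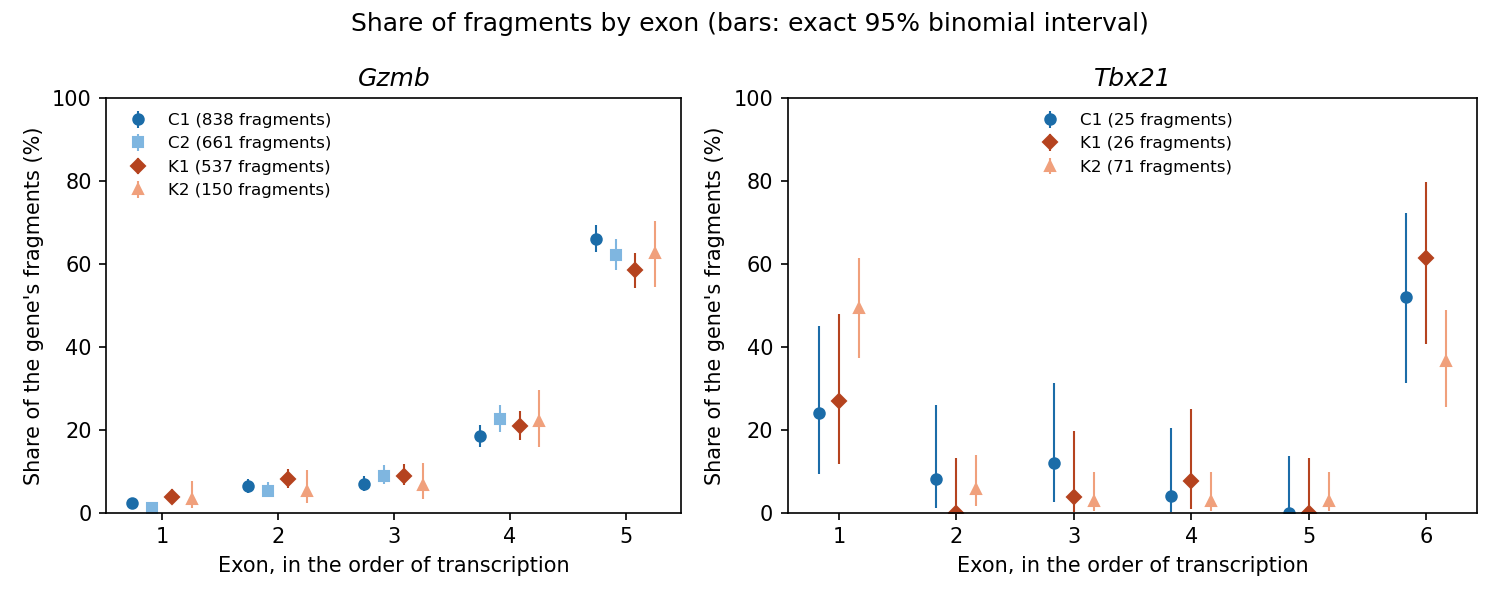
Share of a gene's fragments (%) that lay in each of its exons, numbered in the order of transcription, for Gzmb and Tbx21. Symbols are libraries and bars are exact 95% binomial intervals, and C2, with 1 Tbx21 fragment, is left out on the right. The last exon of Gzmb holds between 58.5% and 66.1%, while the first exon of Tbx21 ranges from 24.0% in C1 to 49.3% in K2.

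Of the receptors, those for interleukin-18 are the products of neighbouring genes on chromosome 1, Il18r1 (ENSMUSG00000026070, 40465552 to 40500854), the ligand-binding chain, and Il18rap (ENSMUSG00000026068, 40515362 to 40551705), the accessory chain, both on the plus strand. Il18rap had 424 fragments in C1, 295 in C2, 259 in K1 and 170 in K2, or 92.6, 77.9, 64.6 and 40.2 CPM. Of the 7 tested members it had the smallest ratio between its highest and its lowest library. Both knockouts lay below both controls, at 52.4 ± 17.3 against 85.2 ± 10.4 CPM (SD, n = 2 each), which is -0.70 ± 0.81 (standard error) on the log2 scale, with a range of -1.07 to -0.38 with 1 library left out. Il18r1 had 41, 0, 2 and 12 fragments in C1, C2, K1 and K2, or 8.95, 0, 0.499 and 2.84 CPM. The groups overlapped, and C1 held most. Its log2 fold change of -1.41 ± 2.67 (standard error) turned positive by limma-voom (0.21), with a Y-linked covariate (0.43) and without C1 (5.77, against a C2 at 0). The paired chains thus did not share a pattern over libraries: C2 had 295 fragments of the accessory chain and 0 of the binding chain.

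Il12rb2 (ENSMUSG00000018341, chromosome 6, 67291318 to 67376188, minus strand), the signalling chain of the interleukin-12 receptor that T-bet and interferon gamma induce, had 11 fragments, all in K1. They lay on 5 of the 8 exons of the gene that have bases of their own, with 1 to 4 on each. The other knockout and both controls had 0, so the difference follows 1 library and not the genotype. Cxcr3 (ENSMUSG00000050232, chromosome X, 101731535 to 101734269, minus strand) had 342 fragments in C1, 1 in C2, 131 in K1 and 69 in K2, or 74.7, 0.264, 32.7 and 16.3 CPM. The controls were the highest and the lowest library, with both knockouts between. Its second exon held 541 of 543 fragments. The log2 fold change was -0.61 ± 2.08 (standard error). It was -1.61 without C2 and 6.38 without C1, and it was also positive by limma-voom (1.83) and with a Y-linked covariate (1.96).

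**Figure D3:**
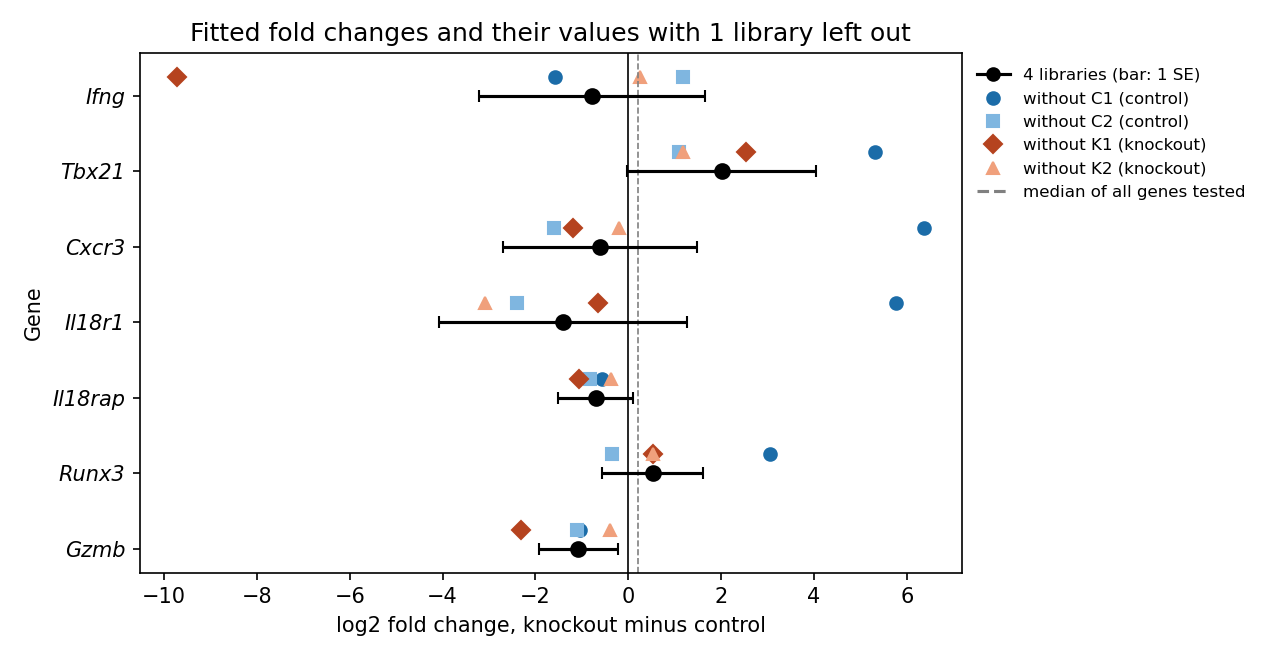
Log2 fold change, knockout minus control, of the 7 tested genes. Black circles with bars are the fit to 4 libraries with 1 standard error, coloured symbols the fit without the named library, and the dashed line the median of all genes tested (0.20). Tbx21 stays right of 0 and Gzmb and Il18rap left of 0 in each fit, while leaving out C1 moves Cxcr3 to 6.38 and Il18r1 to 5.77.

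The 10 genes together held 3534 fragments in C1, 1270 in C2, 2349 in K1 and 1805 in K2. These were 0.0779% of the library in C1 (exact 95% interval 0.0754 to 0.0805), 0.0351% in C2 (0.0332 to 0.0371), 0.0544% in K1 (0.0522 to 0.0567) and 0.0415% in K2 (0.0396 to 0.0434). Runx3 and Gzmb made up 75.5%, 63.4%, 76.7% and 82.0% of these fragments in the same order. C2 had the other mixture, with 52.0% from Gzmb and 11.3% from Runx3, where the other libraries had 8.3% to 23.7% from Gzmb and 51.8% to 73.7% from Runx3. On the scale of CPM per kilobase of exon sequence free of other entries, Gzmb and Runx3 were close in C1 (127 and 116) and in K1 (93.3 and 91.7). They were apart in C2 (121 and 11.1) and in K2 (24.7 and 91.4), in opposite directions. On that scale Tbx21 was between 0.106 and 6.75 and Ifng between 0 and 59.9. The Runx3 values use 3440 free bases, of which 1809 are in the last exon, which held 99.3% of its fragments. Over that exon alone Runx3 would be higher, so its closeness to Gzmb in C1 and K1 depends on the bases used. Fragment lengths were not examined, so these levels per length are rough.

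The T cell markers differed between the libraries beside the members. All 14 were tested and 0 passed the threshold. All 14 had a negative log2 fold change (median -1.15, against 0.20 over all genes tested). Both knockouts lay below both controls for 6 of the 14, against 11.2% of all genes tested. Without C2 all 14 were also negative, with a median of -2.00. In bulk samples, fewer cells of a type and less RNA per cell cannot be told apart. Set against the summed fragments of these markers (5098, 1209, 1412 and 644 in C1, C2, K1 and K2), the members came in another order. For each 100 T cell marker fragments there were 35.9 of Runx3 in C1, 11.9 in C2, 89.5 in K1 and 206 in K2. For Tbx21 these ratios were 0.490, 0.0827, 1.84 and 11.0, and for Cxcr3 they were 6.71, 0.0827, 9.28 and 10.7. All 3 had both knockouts above both controls on this ratio, as did 50.0% of all genes tested, so this is not particular to the 3. Gzmb had 16.4, 54.7, 38.0 and 23.3, and Il18rap 8.32, 24.4, 18.3 and 26.4, so that for both genes C1 was lowest and the groups overlapped. The ratio carries the error of the marker counts and was not tested. In C2, most marker fragments were of Cd3d (299), Trac (277), Trbc2 (260) and Icos (198), with 1 of Cd3e.

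Markers of other cells that can use these genes were measured in the same libraries. Of 8 natural killer markers, 4 had fragments. Their sum was 22.3 CPM in C1, 49.9 in C2, 17.2 in K1 and 8.98 in K2. The defining receptor Ncr1 was at 0 throughout, with only 122 bases free of other entries, so that this 0 says little about its level. Klre1, Klra8 and Klrd1 were also at 0 in all 4 libraries, with 2549, 1178 and 216 bases free of other entries. In C2 the whole sum came from Klrk1 (189 fragments), an activating receptor of natural killer, CD8 and γδ T cells. Markers of γδ T cells, of which 4 of 7 had fragments, summed to 68.3 CPM in C1, 0 in C2, 62.9 in K1 and 37.4 in K2, led by Trdc, the δ constant region, with 112, 0, 129 and 56 fragments. Cd8a, a CD8 T cell marker with 630 bases free of other entries, was at 0 in all 4, and Cd8b1 had 31, 0, 1 and 2 fragments. Mast cell markers, with fragments of all 7 genes, summed to 97.4 to 172 CPM in controls and 139 to 375 in knockouts, led by Cpa3, a mast cell protease (304, 1, 269 and 892 fragments). B and plasma cell markers summed to 0.792 to 14.5 CPM, led by Cd79a. Gzmb was lowest in K2, the library with the highest mast cell sum and the lowest natural killer sum. Cpa3, Mcpt4 and Tpsb2 were highest in K2, and the 1 fragment of Cma1 was there. Kit and Ms4a2 had 0 in K2, against 12 and 17 in K1, and Fcer1a was highest in C2. The natural killer sum of K2 came from Klrk1 (23 fragments), Tyrobp (14) and Klra4 (1). The part of the cell types above in the values of Gzmb and Ifng was not tested.

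Dendritic and Langerhans cell markers, with fragments of 5 of 7 genes, summed to 1637 CPM in C1, 269 in C2, 1229 in K1 and 638 in K2. They were led by Ccr7, a lymph node homing receptor (4663, 330, 1469 and 1286 fragments), and Cd207, the Langerhans cell lectin, had 1795, 504, 2256 and 778. C2 was thus lowest in these markers and in Runx3, and the part of such cells in the Runx3 counts was not tested. Macrophage and monocyte markers summed to 14840 and 6703 CPM in controls and 24880 and 20980 in knockouts, led by Lyz2, the lysozyme of myeloid cells, with fragments of all 8 genes. Neutrophil markers, with fragments of 4 of 5 genes, summed to 356 and 251 CPM in controls and 1573 and 741 in knockouts. Mmp8, neutrophil collagenase, made up most of this sum in every library, at 342.7 CPM in C1, 231.5 in C2, 1527 in K1 and 642.8 in K2. Keratinocyte markers, led by Perp, had fragments of all 9 genes, fibroblast markers, led by Mmp2, of all 7, and endothelial markers, led by Kdr, of all 4. Fibroblast markers summed to 2583 to 12030 CPM and endothelial markers to 6.60 to 41.6 CPM. Hopx, which keratinocytes use, was at 0 also in C2, though only 275 bases of it could be counted.

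**Figure D4:**
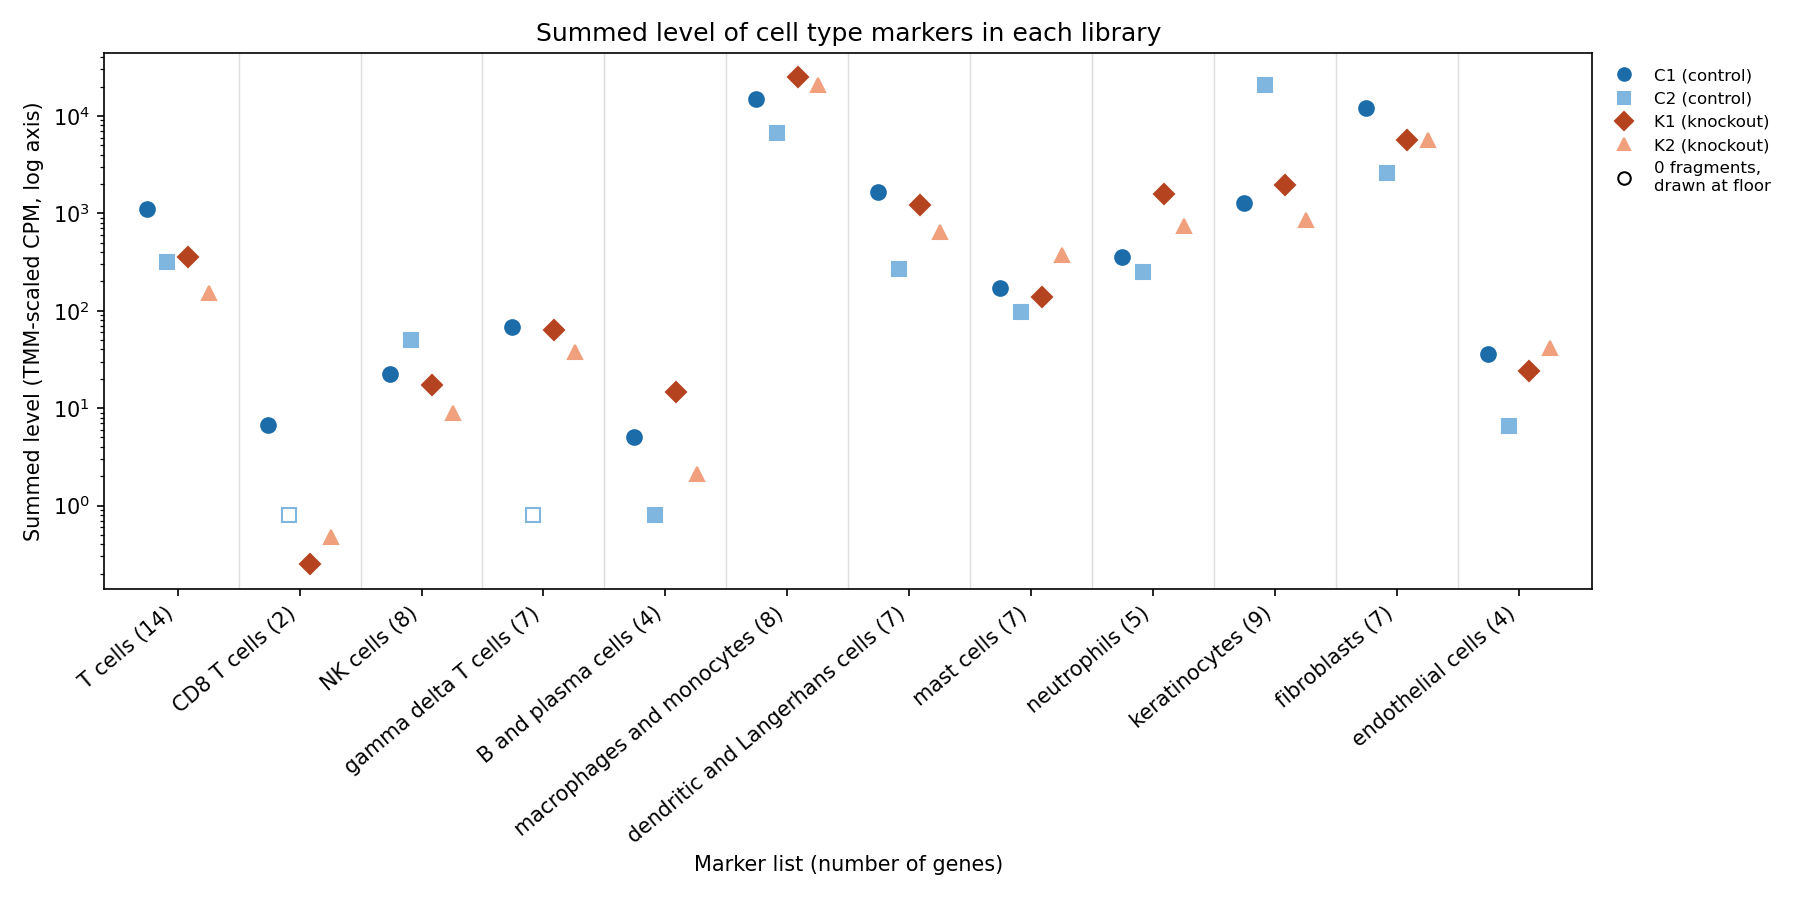
Summed level (TMM-scaled CPM on a log axis) of the marker genes of 12 cell types in each library, with the number of genes of each list in brackets. Open symbols are sums of 0 fragments, drawn at the level of 3 fragments. T cell markers sum to 152 to 1113 CPM, under the macrophage markers in every library, and C2 is highest for keratinocytes and at 0 for γδ T cells. Genes differ in how much of their sequence could be counted, so sums of different lists do not measure one cell type against another.

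Upstream and downstream of the members, 48 other genes of the pathway were followed. Of these, 42 had fragments and 32 were tested, with 26 positive, 6 negative and 0 past the threshold. Over all genes tested, 56.9% were positive and 0.0% were called. Without C2, 21 of the 32 were positive and 11 negative, with a median log2 fold change of 0.57 against 0.03 over all genes. Among 7 cytokines that start the programme or act beside it, 4 were tested and all 4 were positive, and their median was 2.19 on the log2 scale against 0.20 over all genes. In C2, 6 of the 7 had 0 fragments, and without that library 3 of the 4 tested were positive, with a median of 1.21. Ebi3, a chain of interleukin-27 that pairs with the product of Il27, had 428, 0, 395 and 202 fragments in C1, C2, K1 and K2, and Il27 had 26, 0, 48 and 0. Ifnb1, the type I interferon β, had 20, 0, 118 and 63, and Il18 had 5, 0, 36 and 11. For Ifnb1 and Il18 both knockouts exceeded both controls, as was so for 19.5% of all genes tested. Il18 has only 171 bases free of other entries. The interleukin-12 chains Il12a (3, 11, 3 and 0) and Il12b (3, 0, 6 and 0) had too few to test, with 193 and 129 bases free of other entries.

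Receptors and signalling genes were close to even, with 4 positive and 4 negative of 8 tested, a median log2 fold change of 0.14, and 0 past the threshold. Without C2 there were 2 positive and 6 negative, with a median of -0.27. Jak1, a kinase of interferon receptors with the most fragments of this list, was at 885 CPM in C1, 1074 in C2, 842 in K1 and 664 in K2, which gave -0.38 ± 0.49 (standard error) as log2 fold change. Ifngr2, a chain of the interferon gamma receptor, had 206 fragments in C1, 9 in C2, 253 in K1 and 177 in K2.

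Genes that interferon gamma induces were on the positive side in 7 of 7 tested, against 56.9% of all genes tested. Their median log2 fold change was 1.38, against 0.20 over all genes, with 0 past the threshold. For 4 of the 7, K1 and K2 each exceeded C1 and C2, as for 19.5% of all genes tested. Ciita was among the positive at only 0.19, with 305, 0, 304 and 0 fragments in C1, C2, K1 and K2. Without C2, 6 of the 7 were positive, with a median of 1.03. Irf1 had too few fragments to test (24, 0, 8 and 5). Its mean was 2.62 CPM in controls and 1.59 CPM in knockouts. Cxcl9, a ligand of CXCR3, had 78 fragments in C1, 0 in C2, 82 in K1 and 629 in K2, so it was highest where Ifng had 0 fragments and 0 where Ifng was highest. Cd274, the checkpoint ligand PD-L1, had 1895, 251, 3615 and 1482, and Irf8, a factor of myeloid cells, had 891, 201, 1234 and 812. Many of these genes are also induced by type I interferon and used by macrophages, whose markers were higher in both knockouts, and the part of these cells was not tested.

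Of 20 further genes of type 1 effector cells, 13 were tested, with 11 positive, 2 negative and 0 past the threshold. Over all genes tested, 56.9% were positive. Both knockouts lay above both controls for 7 of the 13, against 19.5% of all genes tested. The median log2 fold change of the 13 was 1.22. Without C2, 10 were positive, with a median of 0.74. Most fragments came from the chemokine genes Ccl3 and Ccl4, which activated myeloid cells use as well. Ccl4 was at 842 and 455 CPM in controls and 1804 and 974 in knockouts, and Ccl3 at 653 and 307 in controls and 1573 and 834 in knockouts. Genes of this list that lymphocytes use more narrowly had few fragments. Fasl, the death receptor ligand, had 35, 0, 89 and 0 in C1, C2, K1 and K2, and the chemokine gene Xcl1 had 14, 0, 76 and 9. Cd226, an activating receptor, had 11, 0, 28 and 15, Txk, a T cell kinase, had 1, 0, 32 and 2, and Lta, which encodes lymphotoxin alpha, had 16, 0, 1 and 0. Eomes, a T-box factor related to T-bet, had 5, all in K2. Gzma, Gzmk and Nkg7 had 0 throughout, with 138, 361 and 90 bases free of other entries, so their level is not known from these counts.

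The pattern of Ifng and of Tbx21 over the 4 libraries was set beside that of 9755 other genes with a mean of at least 5 CPM, by Pearson's r of log2(CPM + 1), given as a description over 4 points. The most alike to Ifng were Rab6a (0.9999), Huwe1 (0.9992) and Rab30 (0.9989). Those most alike to Tbx21 were Dhx9 (0.9998), Dennd1b (0.9995) and Procr (0.9994). With 4 points such values are common, and 28 genes had r over 0.99 with Ifng and 137 with Tbx21. Among the members, Ifng went with Gzmb (0.85) and Il18rap (0.68) and opposite to Tbx21 (-0.81), while Tbx21 went with Runx3 (0.88) and Cxcr3 (0.74). These points share the library totals, and C2 lies at an end of the range for Ifng, Tbx21, Cxcr3 and Runx3.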

How the data were processed

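The 4 libraries (C1, C2, K1, K2), 2 per genotype, hold raw fragment counts per exon entry. Per the file headers, the authors counted with featureCounts 2.0.1 against GENCODE M23 on GRCm38 alignments, without strand, by exon entry, keeping read pairs that mapped at both ends and were not chimeric. Per the submitters' processing notes, Trim Galore 0.6.7 and STAR 2.7.9a came before. How duplicates were handled is not stated in these sources. Of 841606 exon entries, 64.8% share their coordinates with another entry and held 0 fragments, so counts come from exons of a single transcript. They can reflect transcript use as well as gene level, and RNA of the opposite strand cannot be told apart.

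Here, exon entries were summed per gene, symbols matched for 55154 of 55335 identifiers, and transcript types taken from GENCODE M21 (99.7% of entries matched). The groups were compared with edgeR 4.0.16 (R 4.3.3): TMM normalisation, filterByExpr (minimum count 10) and two-sided quasi-likelihood tests with Benjamini-Hochberg adjustment over 12434 genes at 0.05. Standard errors are the log2 fold change divided by the root of F. The code was tested on simulated data. DESeq2 1.42.0, limma 3.58.1 (voom), other scalings and filters, a Y-linked covariate, retained-intron exons left out and each library left out in turn were alternatives. List counts without C2 were added after the data were seen. Named are the 10 members, of each other list the gene with the highest mean CPM and, of pathway lists, the 3 with the lowest p; others were named after their values were seen. Some genes that this rule names are not reported here. The members and lists were chosen with earlier results of these data known.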

Additional observations from a re-analysis of the deposited data

How the results depend on the processing

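None of the members passed the threshold under any of 12 alternatives (adjusted p of the tested members from 0.0578 to 1.0, leaving out the NA that DESeq2 gave Tbx21 and Il18r1). Over all genes the count of calls was 0, but 17 by DESeq2 and 27 without a low-count filter, and from 0 to 1 with 1 library left out. The members' median log2 fold change of -0.70 became 0.21 with limma-voom and 0.43 with Y-linked transcripts as covariate, and lay between -1.07 and 3.05 with 1 library left out, the latter without C1. The median over all genes, 0.20, was 0.09 with library totals alone, 1.47 without C1, 0.48 with that covariate and 0.44 with limma-voom. Of 82 member values under the alternatives, 73 kept direction and side of the threshold, with NA counted as not past it. The other 9 turned. Among them were Cxcr3 with limma-voom (1.83) and with Y-linked transcripts as covariate (1.96), and Il18r1 in the same settings (0.21 and 0.43). The rest turned with 1 library left out. There Cxcr3 lay between -1.61 and 6.38, Il18r1 between -3.09 and 5.77, Ifng between -9.72 and 1.18, and Runx3 between -0.34 and 3.05. The cause was not tested. The lower end for Ifng and the upper end for Il18r1 each rest on a group whose only library had 0 fragments, and are no bounds. Tbx21 stayed positive, and Gzmb and Il18rap negative, in all 12. Ifng and Il18r1 were not among genes with a fragment in every library, so that setting gave them no value. No paired analysis was possible because the submitters' labels give the libraries no replicate numbers, and numbers in order of listing pair nothing. Tbx21, Il18r1, Il12rb2 and Stat4 had fewer than 100 fragments in each library. What part depth and the spread between 2 libraries per genotype have in the absence of calls was not tested.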
